A study of Mus musculus with 48 samples.

Results

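Amygdala transcript levels of mice in the CS arm were compared with those of mice in the NH arm. The comparison uses the 16 amygdala arrays of these arms, 6 CS and 10 NH, out of 48 in the series, chosen by the arm prefix and the tissue letter of their titles. The arm codes are not expanded in the labels. The series title speaks of associative and nonassociative learning, and on that basis CS was taken as the conditioned stimulus alone, FC as fear conditioning and NH as naive animals left in the home cage. Strain, sex, age, the stimulus itself and the time between session and dissection are not given in the labels, and no treatment shared by the arms is named. The labels also do not say whether each array came from 1 animal or from pooled tissue, or whether replicates are separate animals. The p-values are therefore measured against the spread between arrays, some of which may be technical.

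The amygdala is a group of nuclei in the temporal lobe that links sensory cues with emotional responses and is needed for learned fear. When a neuron fires strongly, calcium entry and the cAMP and MAP kinase pathways act on transcription factors already present in the cell, such as CREB and serum response factor, and these switch on immediate early genes without new protein synthesis. Some of these genes encode transcription factors (Fos, Junb, Egr1, Nr4a1), some encode proteins that act at synapses or in signalling (Plk2, Homer1, Bdnf), and some encode phosphatases that switch the MAP kinase signal off again (Dusp1, Dusp6). A tone, a new cage or handling alone is known to switch on such genes in many brain regions, which is why an arm with the stimulus alone is used as a control for conditioning.

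Of 12422 probe sets tested, 1 differed between CS and NH, 0.00805% of all, and it reports Fos. Levels are log2 of the deposited intensity, so a difference of 1 is a doubling. Each difference came from a limma fit with processing batch as a fixed block, with Benjamini-Hochberg adjustment at a threshold of 0.05. The batches came from the labels. Batch 2 held 3 CS and 3 NH arrays, batch 3 held 3 CS and 1 NH, and batch 1 held 6 NH arrays and no CS, so every difference rests on 4 NH arrays while the 6 of batch 1 add only to the estimate of the spread. All 22 amygdala arrays, the 6 of the FC arm included, shared that estimate. The FC arrays also entered the offset between batches 2 and 3, and so could move a CS minus NH difference. For Fos it was 1.15 with them and 1.17 with CS and NH arrays only.

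One CS array, replicate 23139, stood apart from the rest. Its median absolute deviation from the probe set medians of its batch was 0.12 on the log2 scale, the largest of the 22 amygdala arrays, and its median correlation with the other amygdala arrays, 0.992, was the lowest. It also had the highest Fos level of the CS arrays, 7.05. Without it the Fos difference was 1.02 and Fos was still the 1 probe set past the threshold, while the number with an unadjusted p below 0.05 was 183 instead of 465. Without NH replicate 28892, of batch 2, that number was 204 and the calls were the same 1. The log2 gap between the 3′ and 5′ control probe sets of Actb, a sign of RNA integrity, ranged from 0.68 to 1.25 in CS arrays and from 0.80 to 1.15 in NH arrays. The 1.25 belongs to replicate 23139, and in batch 2 the mean gap was 1.13 in CS and 0.99 in NH. The part of RNA integrity in the differences was not tested.

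Fos encodes a partner of the Jun proteins in the AP-1 transcription factor and is the gene most used to mark recently active neurons. In CS arrays its level was 6.43, 7.05 and 6.52 in batch 2 and 6.15, 6.11 and 6.22 in batch 3. In NH arrays it was 5.41, 5.33 and 5.32 in batch 2, 5.27 in batch 3, and 5.51, 5.17, 4.96, 4.64, 5.58 and 5.39 in batch 1. The arms did not overlap, with 6.11 on the lowest CS array against 5.58 on the highest NH array. The CS mean was 6.41 ± 0.350 (SD, n = 6) and the NH mean 5.26 ± 0.279 (SD, n = 10). With batch as a block Fos rose by 1.15 ± 0.145 (SE) on the log2 scale in CS over NH, a 2.22-fold difference (adjusted p = 0.000326, limma). Batch 2 gave 1.31 and batch 3 gave 0.89. The 95% interval of the gap between these batches ran from -0.21 to 1.05. An exact permutation test within batches 2 and 3 gave a two-sided p of 0.0125, the smallest its 80 arrangements can give. It restates the separation of the arms within batches, which 201 probe sets share, and adds no further support.

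A second Fos probe set lay at percentile 22.9 of the mean level, against percentile 55.0 for the one described, and its CS minus NH difference was 0.12 ± 0.075 (SE, adjusted p = 0.986). On it, 3 of 6 CS arrays exceeded each NH array of the same batch. Fos was therefore measured as changed by 1 of its 2 probe sets. In bulk tissue, more cells expressing a gene and more RNA in each such cell cannot be told apart.

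**Figure D1:**
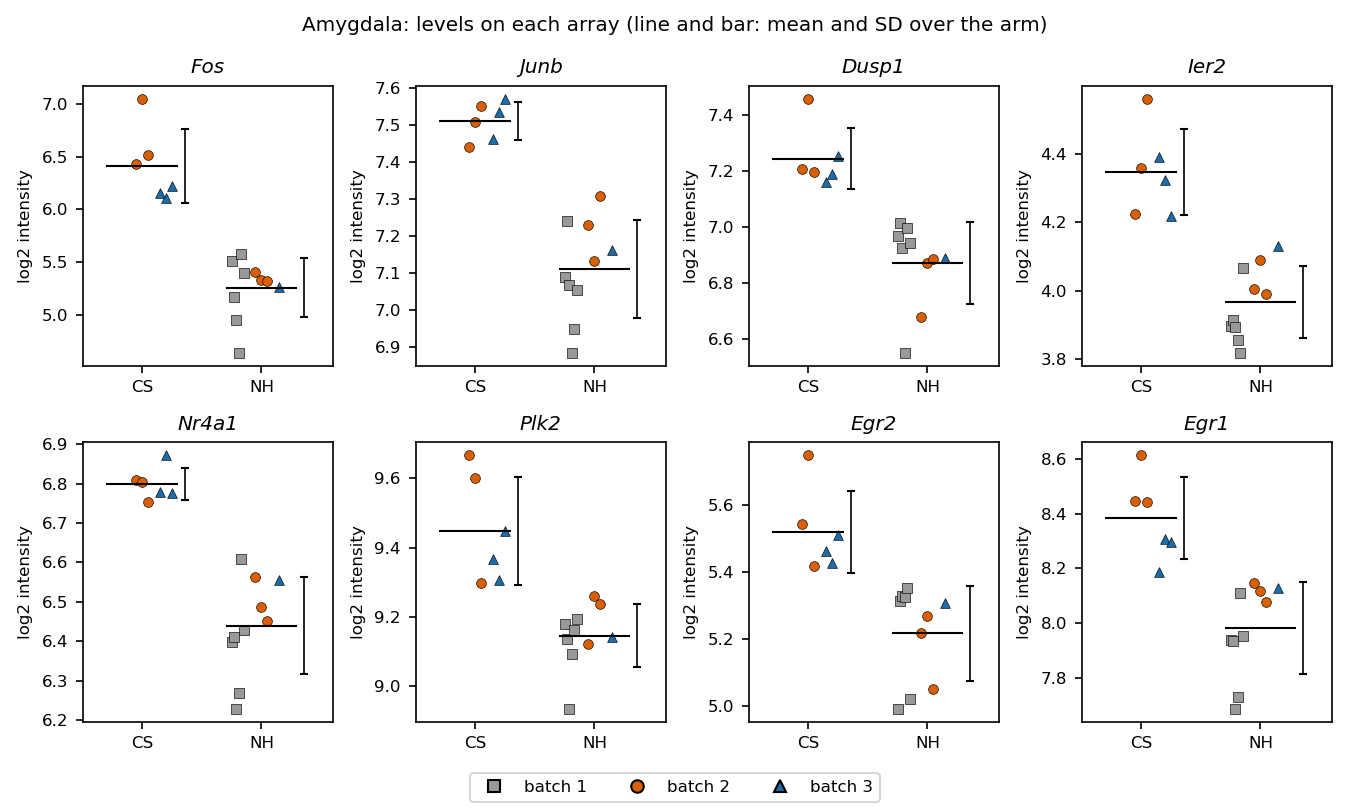
Log2 intensity (vertical axes) of 8 activity genes on the 6 CS and 10 NH amygdala arrays, with the mean as a line and the SD as a bar over each arm, and symbols for processing batches 1, 2 and 3. In all 8 panels each CS array lies above each NH array. The Fos gap is widest, and the vertical axes differ between panels.

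After Fos, the smallest adjusted p-values belonged to Junb, Dusp1, Ier2 and Nr4a1, and none of them passed the threshold. Junb encodes another AP-1 subunit. Its CS arrays had a lowest level of 7.44, a median of 7.52 and a highest of 7.57, against 6.88, 7.11 and 7.31 in NH. The arms did not overlap, and the difference was 0.30 ± 0.059 (SE, adjusted p = 0.151). A second Junb probe set gave 0.18.

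Dusp1 encodes a phosphatase that inactivates MAP kinases. Its levels were 7.16, 7.20 and 7.46 (lowest, median, highest) in CS and 6.55, 6.91 and 7.01 in NH. The arms did not overlap. The difference was 0.41 ± 0.083 (SE, adjusted p = 0.155), and the highest CS array, replicate 23139, stood apart from the other 5, which lay between 7.16 and 7.25.

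Ier2, an immediate early gene, was dim at percentile 23.6 of mean level. Its CS arrays ranged from 4.22 over a median of 4.34 to 4.56, against 3.82, 3.95 and 4.13 in NH, with no overlap, and the difference was 0.31 ± 0.065 (SE, adjusted p = 0.214). Nr4a1 encodes an orphan nuclear receptor induced by activity. It had levels of 6.75, 6.79 and 6.87 in CS and 6.23, 6.44 and 6.61 in NH, again with no overlap, and a difference of 0.27 ± 0.063 (SE, adjusted p = 0.517). The CS arrays of Nr4a1 lay close together, with an SD of 0.042 against 0.123 in NH. With batch as a random block, and also with array weights, all 4 of these genes passed the threshold. The random block lets the NH arrays of batch 1, which holds no CS array, enter the difference.

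Stretches of 250 bases before the RefSeq start sites of Fos and of 4 of the genes that follow it are shown because they are the leading CS genes for which the RefSeq table used here holds a start site and a sequence can be set beside the values. They run 5′ to 3′ on the gene's own strand in build GRCm38.p6. Capitals mark TGACG or its reverse complement CGTCA, the core of a cAMP response element, the full element TGACGTCA, and TATAAA. The AP-1 motif TGANTCA and the serum response factor box CCWWWWWWGG, where N is any base and W is A or T, were also searched on both strands. Neither occurs in these 5 stretches. Boxes with a mismatch, and bases further from the start site, were not searched.
Fos, chr12:85473640-85473889, plus strand: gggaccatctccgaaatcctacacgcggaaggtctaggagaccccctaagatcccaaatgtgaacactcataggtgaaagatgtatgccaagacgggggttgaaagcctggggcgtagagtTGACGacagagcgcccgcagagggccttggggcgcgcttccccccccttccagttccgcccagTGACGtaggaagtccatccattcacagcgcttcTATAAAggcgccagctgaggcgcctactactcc
Junb, chr8:84978749-84978998, minus strand: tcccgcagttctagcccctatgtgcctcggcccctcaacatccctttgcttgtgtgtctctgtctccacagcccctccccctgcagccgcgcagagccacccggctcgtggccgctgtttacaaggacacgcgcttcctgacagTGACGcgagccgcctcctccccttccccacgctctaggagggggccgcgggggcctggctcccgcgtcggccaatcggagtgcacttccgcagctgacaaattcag
Dusp1, chr17:26508473-26508722, minus strand: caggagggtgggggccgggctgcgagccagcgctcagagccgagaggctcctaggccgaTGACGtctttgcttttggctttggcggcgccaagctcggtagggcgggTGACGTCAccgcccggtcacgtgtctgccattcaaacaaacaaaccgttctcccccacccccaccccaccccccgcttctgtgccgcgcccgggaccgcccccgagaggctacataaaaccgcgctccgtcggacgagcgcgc
Nr4a1, chr15:101266596-101266845, plus strand: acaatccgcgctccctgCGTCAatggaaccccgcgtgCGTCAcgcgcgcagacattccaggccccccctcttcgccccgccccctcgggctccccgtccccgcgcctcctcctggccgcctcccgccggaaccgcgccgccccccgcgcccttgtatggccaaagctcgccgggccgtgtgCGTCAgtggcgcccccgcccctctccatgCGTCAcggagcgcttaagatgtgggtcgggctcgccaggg
Plk2, chr13:110394794-110395043, plus strand: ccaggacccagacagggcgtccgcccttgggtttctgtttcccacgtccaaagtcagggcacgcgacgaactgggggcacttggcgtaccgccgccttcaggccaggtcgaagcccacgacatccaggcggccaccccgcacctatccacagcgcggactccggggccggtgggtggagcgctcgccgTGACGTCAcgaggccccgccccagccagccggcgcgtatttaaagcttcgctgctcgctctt

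All 5 stretches hold TGACG on one strand or the other. Fos has it at positions -129 and -66 and a TATAAA at -33, counted from the start site to the first base of the match. Dusp1 holds the full TGACGTCA at -143 and Plk2 holds it at -62, and each full element also counts as TGACG on both strands. Nr4a1 has CGTCA at 4 places and Junb has TGACG at 1. Among the 17 activity genes with an unadjusted p below 0.05 described next, 11 have an entry in the promoter table. Of these, 8 hold TGACG in at least 1 of their windows. Over all measured activity genes with an entry, whatever their p, 30 of 47 hold it. Of all 32851 promoter windows in the table, 17.8% hold TGACG, 1.55% TGACGTCA, 12.4% TATAAA, 6.75% TGANTCA and 1.47% the serum response factor box. These shares count windows, while the counts before them are of genes. A gene with several start sites has several chances of a match, and a match is a description of letters, not of a bound site.

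The activity genes were also described in 3 lists, each gene by its brightest probe set, with 62 measured genes in all. Of these, 1 passed the adjusted threshold, and 17 had an unadjusted p below 0.05 with higher levels in CS and 0 with lower levels. Over all 8251 genes, 2.19% had an unadjusted p below 0.05 and were higher in CS, and 1.48% were lower. In 14 of the 62, each of the 6 CS arrays exceeded all NH arrays of the same batch, against 1.87% of all genes, and in 0 of the 62 each lay below them, against 1.19% of all genes. In 9 of the 62, all 6 CS arrays lay above all 10 NH arrays, against 0.177% of all probe sets. The lists were drawn up with earlier results of these data known, so these shares are a description.

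**Figure D2:**
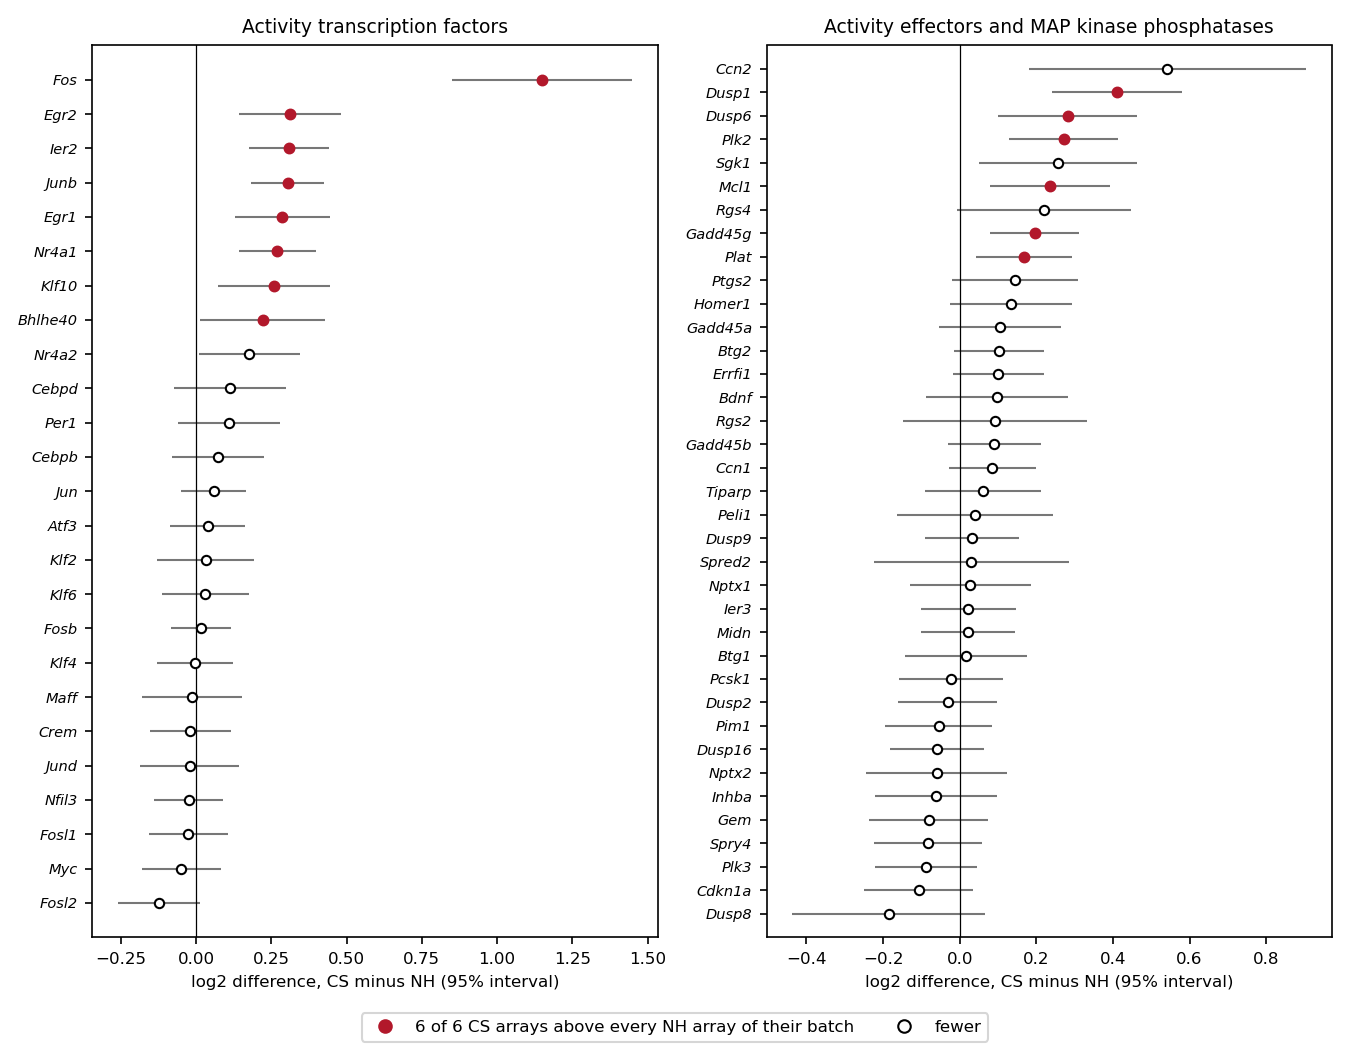
CS minus NH difference on the log2 scale (horizontal axes) with its 95% interval for 25 activity transcription factors (left) and for 29 activity effectors and 8 MAP kinase phosphatases and feedback inhibitors (right). Filled points are genes in which each of the 6 CS arrays exceeded all NH arrays of the same batch. Fos stands at 1.15, and the next largest difference is 0.54, for Ccn2.

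Among 25 measured activity transcription factors, 17 differences were above 0 and 8 below, with a median of 0.06, while over all genes 4157 were above and 4094 below, with a median of 0.00. The 9 with an unadjusted p below 0.05 were Fos, Egr2, Ier2, Junb, Egr1, Nr4a1, Klf10, Bhlhe40 and Nr4a2. Egr1 and Egr2 encode zinc finger factors induced by growth factors and synaptic activity. Egr1 had levels of 8.19, 8.38 and 8.61 (lowest, median, highest) in CS against 7.69, 8.01 and 8.15 in NH, and Egr2 had 5.42, 5.49 and 5.75 in CS against 4.99, 5.29 and 5.35 in NH. Neither gene overlapped between the arms. The differences were 0.29 ± 0.077 (SE) for Egr1 and 0.31 ± 0.083 (SE) for Egr2 (adjusted p = 0.986 for each). A second Egr1 probe set gave -0.03.

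Klf10 encodes a zinc finger factor induced by TGF-beta. Its levels were 6.98, 7.16 and 7.44 in CS and 6.68, 6.91 and 7.13 in NH, with an overlap over all arrays but none within batches. The difference was 0.26 ± 0.090 (SE), with 0.13 in batch 2 and 0.58 in batch 3, and 0.12 without NH replicate 3142153, the only NH array of batch 3. A second Klf10 probe set gave 0.25. Bhlhe40, which encodes a repressor that also acts on the clock, differed by 0.22 ± 0.102 (SE), or 0.14 without that array. The nuclear receptor gene Nr4a2 differed by 0.18 ± 0.081 (SE), with 0.09 on a second probe set. Over all 16 arrays the arms overlapped in both genes.

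Other members of the same families lay near 0. Jun differed by 0.06 ± 0.052 (SE), with levels of 6.35, 6.47 and 6.61 in CS and 6.32, 6.43 and 6.51 in NH. Fosb differed by 0.02 ± 0.049 (SE), with 6.91, 6.92 and 7.00 in CS and 6.86, 6.95 and 7.12 in NH. The arms overlapped in both genes, and the 95% intervals ran from -0.05 to 0.17 for Jun and from -0.08 to 0.12 for Fosb. The intervals leave out a difference as large as that of Fos. Jund, at percentile 99.5, gave -0.02, and Fosl2 gave -0.12 ± 0.066 (SE). Per1, a clock gene that activity also induces, differed by 0.00 in batch 2 and 0.30 in batch 3. Egr3, Egr4, Nr4a3, Npas4, Ier5, Srf and Csrnp1 were on the list and are not analysed here.

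Among 29 measured activity effectors, 22 differences were above 0 and 7 below, with a median of 0.09. The 6 with an unadjusted p below 0.05 were Plk2, Gadd45g, Mcl1, Ccn2, Plat and Sgk1, and none passed after adjustment (adjusted p = 0.986 for each). Plk2 encodes a kinase that acts on dendritic spines, and it was bright at percentile 96.8. Its levels were 9.30, 9.41 and 9.67 in CS and 8.93, 9.15 and 9.26 in NH. The arms did not overlap, and the difference was 0.27 ± 0.069 (SE), with 0.32 in batch 2 and 0.23 in batch 3.

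Gadd45g encodes a stress-response protein. Its levels were 6.34, 6.42 and 6.47 in CS and 6.05, 6.17 and 6.33 in NH, with no overlap, and the difference was 0.20 ± 0.056 (SE). Mcl1, which encodes a survival protein of the Bcl-2 family, differed by 0.24 ± 0.076 (SE), with 6.52, 6.68 and 6.81 in CS and 6.29, 6.42 and 6.59 in NH, and by 0.16 without NH replicate 3142153. Plat encodes tissue plasminogen activator, a secreted protease. It differed by 0.17 ± 0.061 (SE), or 0.11 without CS replicate 23139, and the arms overlapped over all arrays but not within batches.

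Ccn2, which encodes a matrix growth factor, had the largest difference after Fos, 0.54 ± 0.176 (SE), and its CS arrays were uneven. It gave 0.83 in batch 2 and 0.02 in batch 3. Its levels were 3.78, 3.94 and 5.18 in CS and 3.60, 3.99 and 4.58 in NH, so the CS median lay below the NH median. The probe set was dim, at percentile 22.9. Sgk1, a kinase gene induced by glucocorticoids, differed by 0.26 ± 0.100 (SE). Its CS levels were 5.91, 6.10 and 6.67, the highest in replicate 23139, against 5.76, 5.91 and 6.11 in NH, and without that array the difference was 0.14.

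Several other effectors had no unadjusted p below 0.05 on their brightest probe set. Bdnf, the neurotrophin gene, had levels of 7.51, 7.86 and 8.15 in CS and 7.65, 7.93 and 8.00 in NH, and a difference of 0.10 ± 0.090 (SE). Homer1, a scaffold of the postsynaptic density, differed by 0.13 ± 0.077 (SE), and a second probe set by -0.01. Both genes overlapped between arms. Errfi1, an inhibitor of EGF receptor signalling, gave 0.10 on its brightest probe set and 0.21 on the other, on which all 6 CS arrays lay above all 10 NH arrays. Gadd45b gave 0.09 on its brightest probe set and 0.27 on another. Arc was on the list and is not analysed here.

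Of 8 measured MAP kinase phosphatases and feedback inhibitors, 4 differences were above 0 and 4 below, with a median of 0.00. Dusp6 encodes a phosphatase specific for ERK. Its levels were 6.66, 6.76 and 7.26 in CS and 6.36, 6.59 and 6.75 in NH. The difference was 0.28 ± 0.089 (SE, adjusted p = 0.986) on this probe set and -0.18 on another, so its probe sets disagree in direction. Dusp8 gave -0.18 and a second probe set -0.17, Spry4 gave -0.08 and Dusp2 -0.03. The 6 members other than Dusp1 and Dusp6 thus lay between -0.18 and 0.03.

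Lists of pathways upstream of these genes held no member past the threshold, which 1 of all 12422 probe sets passed (0.00805%). The values are transcript levels and do not measure the activity of a pathway. Of 21 measured genes of cAMP and CREB signalling, 12 differences were above 0 and 9 below, with a median of 0.02. Crebbp, a histone acetyltransferase that CREB recruits, differed by 0.16. Creb1 gave -0.15 on its brightest probe set and 0.09 and -0.10 on the others, so they disagree in direction. The ERK cascade had 9 above and 10 below, with a median of 0.00, and calcium signalling had 10 above and 8 below, with a median of 0.02. Glucocorticoid-responsive genes and stress receptors had 14 above and 7 below, with a median of 0.06, and Dusp1 and Sgk1 are members of that list too. Receptor and transmitter lists were also close to the all-gene median of 0.00, at 0.02 for glutamate receptors and the postsynaptic density, 0.03 for GABA genes, 0.02 for the synaptic vesicle and -0.01 for neuropeptides and their receptors. Of 24 cytosolic heat shock protein genes 19 were above 0 and 5 below, with a median of 0.06, while endoplasmic reticulum chaperones had a median of 0.03 and clock genes one of 0.02. The heat shock median was 0.06 in batch 2, 0.05 in batch 3 and 0.003 in hippocampus. Without CS replicate 23139, Hspa4l gave 0.06 instead of 0.16, Hspa4 0.08 instead of 0.15, Hsph1 0.09 instead of 0.14 and Cct5 0.02 instead of 0.10.

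The lists of the respiratory chain, ribosome and proteasome, which every cell expresses, had small medians above 0. Of 70 measured genes of the respiratory chain and ATP synthase, 59 differences were above 0 and 11 below, with a median of 0.08. Of 36 cytosolic ribosomal protein genes, 30 were above and 6 below, with a median of 0.07. Of 37 proteasome subunit genes, 30 were above and 7 below, with a median of 0.05. The medians were 0.14, 0.10 and 0.09 in batch 2 and 0.02, 0.03 and 0.03 in batch 3, in that order of lists. Without CS replicate 23139 they were 0.05, 0.04 and 0.01, and the proteasome list then had 19 genes above 0 and 18 below. No gene of these lists passed the threshold. The widest example was Cox7a2, a subunit of cytochrome c oxidase, with 9.67, 9.90 and 10.21 in CS against 9.60, 9.76 and 9.99 in NH, and a difference of 0.23 ± 0.087 (SE, adjusted p = 0.986, limma). In hippocampus the list medians of CS minus NH were below 0, at -0.05, -0.01 and -0.04 in the same order of lists.

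**Figure D3:**
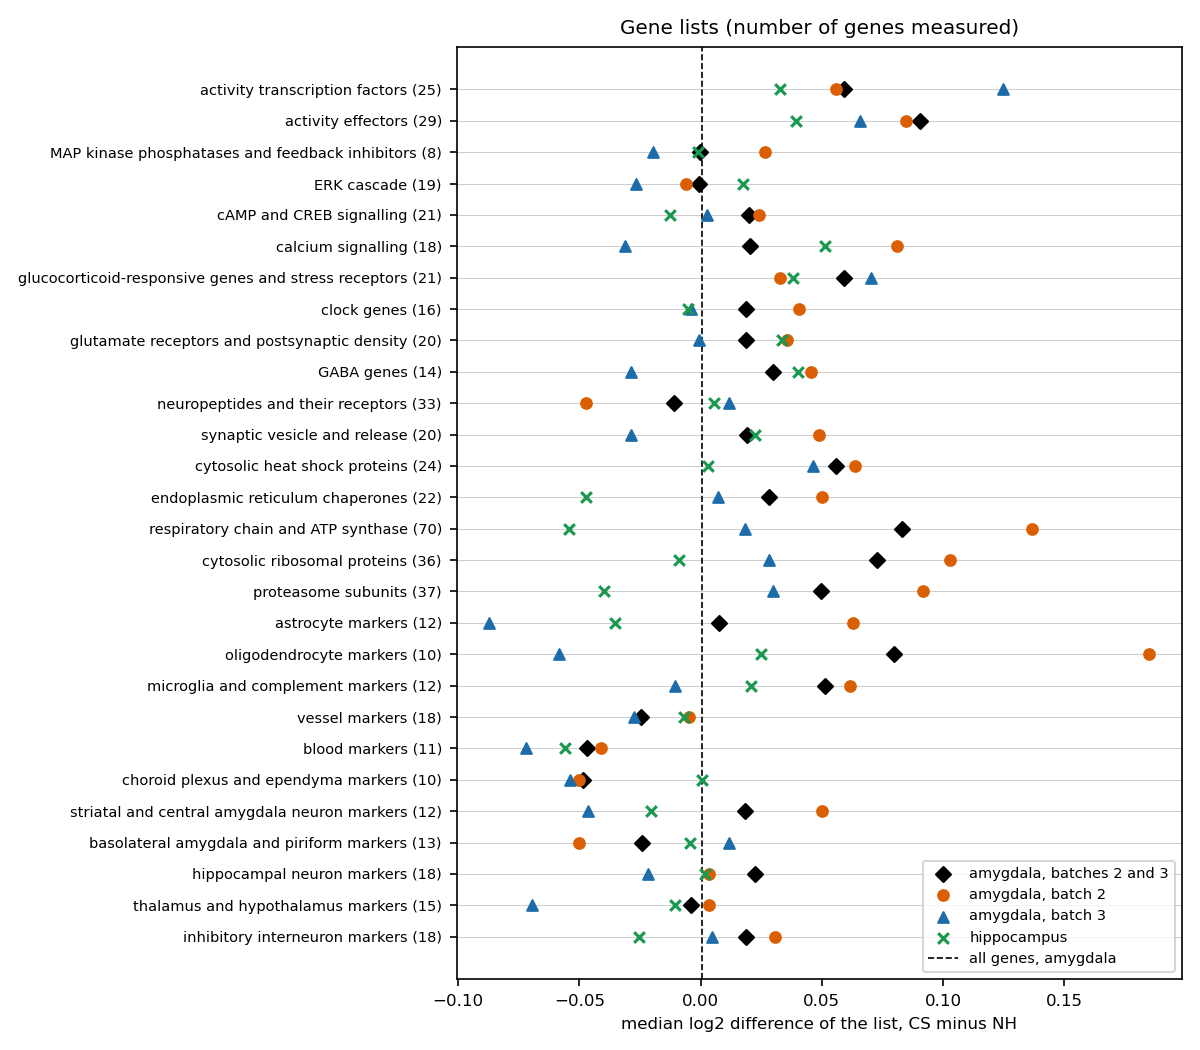
Median log2 difference of CS minus NH (horizontal axis) for 28 gene lists, with the number of measured genes in brackets, for amygdala over batches 2 and 3, for each of these batches alone and for hippocampus. The dashed line is the median over all genes in amygdala. Oligodendrocyte markers stand at 0.19 in batch 2 and -0.06 in batch 3.

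Markers of other cell types were given beside these results. Of 10 measured oligodendrocyte markers 7 were above 0 and 3 below, with a median of 0.19 in batch 2 and -0.06 in batch 3, and their mean level ranged from 6.64 to 6.87 in CS arrays and from 6.61 to 6.80 in NH arrays. Mog, a myelin glycoprotein gene, differed by 0.28 ± 0.082 (SE, adjusted p = 0.986), with 0.42 in batch 2 and 0.01 in batch 3, while the myelin gene Mag gave -0.18 on its brightest probe set and 0.09 on the other, and the oligodendrocyte factor gene Sox10 gave -0.15 and -0.05. The medians of the other lists were 0.01 for astrocytes, 0.05 for microglia and complement, -0.02 for vessels, -0.05 for blood and -0.05 for choroid plexus and ependyma. Differences were above 0 in 7 of 12 astrocyte and 9 of 12 microglia and complement markers. They were below 0 in 12 of 18 vessel, 8 of 11 blood and 8 of 10 choroid plexus and ependyma markers. The median of this last list was -0.05 in batch 2 and -0.05 in batch 3. No marker passed the threshold, and the part of cell composition in the differences above was not tested.

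Markers of neighbouring regions also had medians near 0. Basolateral amygdala and piriform markers had a median of -0.02 over 13 genes, striatal and central amygdala markers 0.02 over 12, thalamus and hypothalamus markers 0.00 over 15, and inhibitory interneuron markers 0.02 over 18. As a check of the tissue, Adcyap1, a neuropeptide gene, lay at a mean percentile of 72.5 in CS and 74.3 in NH amygdala arrays, against 41.0 in hippocampus. Neurod6, on both the basolateral amygdala and the hippocampal neuron list, lay at 33.7 in CS and 36.2 in NH amygdala arrays, against 81.6 in hippocampus. Of the 18 hippocampal neuron markers, 7 ranked higher within each hippocampus array than within any amygdala array. Another 3 (Wfs1, Calb1 and Calb2) ranked lower, and 8 overlapped. Of the 13 basolateral amygdala and piriform markers, 3 ranked higher within each amygdala array than within any hippocampus array, 5 ranked lower, and 5 overlapped. Of the 12 striatal and central amygdala markers, 4 ranked higher, among them the neuropeptide genes Tac1 and Penk, 2 (Rgs14 and Foxp1) ranked lower, and 6 overlapped. The striatal gene Rgs9 was low at 10.9 in CS and 11.7 in NH amygdala.

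Outside the activity lists, the leading differences were small and none passed the threshold. Among the genes with the smallest p and higher levels in CS, Ppil2 differed by 0.17 (0.09 and 0.05 on other probe sets), the tyrosine phosphatase gene Ptpn1 by 0.20 and the polarity gene Pard6a by 0.20. Among those lower in CS, Mtmr14, a lipid phosphatase gene, gave -0.44 ± 0.129 (SE), but its levels overlapped, at 5.19, 5.49 and 5.77 in CS and 4.97, 5.32 and 6.34 in NH, and the brighter probe set of the gene gave -0.01. Cggbp1 gave -0.23 on 1 probe set, while the brightest of its others gave 0.05 and the rest -0.05 and 0.00. The insulin-degrading enzyme gene Ide gave -0.23, with -0.20 and -0.09 on other probe sets, and Dhodh, an enzyme of pyrimidine synthesis, -0.18 with 0.08 on a second probe set. The galanin gene Gal gave -0.16, and -0.04 on a second probe set. Sox18, one of the vessel markers, gave -0.17, and -0.14 on a second probe set. The adjusted p was 0.986 (limma) for each gene named in this paragraph.

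Over all 12422 probe sets, 465 (3.74%) had an unadjusted p below 0.05. Of all probe sets, 252 (2.03%) passed that limit with higher levels in CS, and 213 (1.71%) with lower levels. Within batches, each of the 6 CS arrays exceeded all NH arrays in 201 (1.62%) and lay below them in 159 (1.28%). All 6 CS arrays lay above all 10 NH arrays in 22 probe sets (0.177%) and below them in 7 (0.0564%). Besides activity genes and 4 probe sets without a single gene name, the 22 report Gtf2h4, Uqcc1, Tagln3, Map1lc3b, Pmm1, Slc6a8, Uchl1 and Eif2b5, with differences from 0.08 to 0.20, and the 7 report Cyp2b10, Tspan8, Sh3bp2, Klrk1, Aadac, Ikbip and Bmx, with differences from -0.07 to -0.21. These names outside the activity lists were chosen after their values were seen. All of them had an adjusted p of 0.986. The counts of 22 and 7 compare arrays across batches, while the other counts were taken within batches or with batch as a block. Between the 6 NH arrays of batch 1 and the 4 NH arrays of batches 2 and 3, 572 probe sets (4.60%) passed the threshold. The part of processing batch in the counts of 22 and 7 was not tested.

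In hippocampus, the same contrast of arms over 8 CS and 10 NH arrays gave 1 probe set past the threshold, which also reports Fos. There too the difference rests on 4 NH arrays, since the other 6 lay in a batch without CS, and 4 CS arrays lay in a batch without NH. Some amygdala replicate numbers can be read as a batch digit followed by numbers of hippocampus arrays of the same arm. The others cannot, among them those of all NH amygdala arrays that share a batch with CS. Some arrays of both tissues may therefore come from shared animals. This is not stated in the labels, and the joint fit takes the arrays of both tissues as independent. The Fos difference was 1.15 in amygdala and 0.98 in hippocampus, and the gap between the tissues was 0.17, with a 95% interval from -0.27 to 0.61 (joint limma fit of 48 arrays). No probe set of 12422 passed the threshold for a difference between the tissues, and 267 (2.15%) had an unadjusted p below 0.05. Dusp1 gave 0.41 in amygdala and 0.39 in hippocampus, and Junb gave 0.30 and 0.28, in the same order. Plk2 gave 0.27 in amygdala and 0.02 in hippocampus, a gap of 0.25 with an interval from 0.04 to 0.46 that did not pass after adjustment. Of the 62 activity genes, 34 had the larger value in amygdala. The median gap between the tissues over all probe sets was -0.005, and the share of all genes with the larger value in amygdala was not counted.

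**Figure D4:**
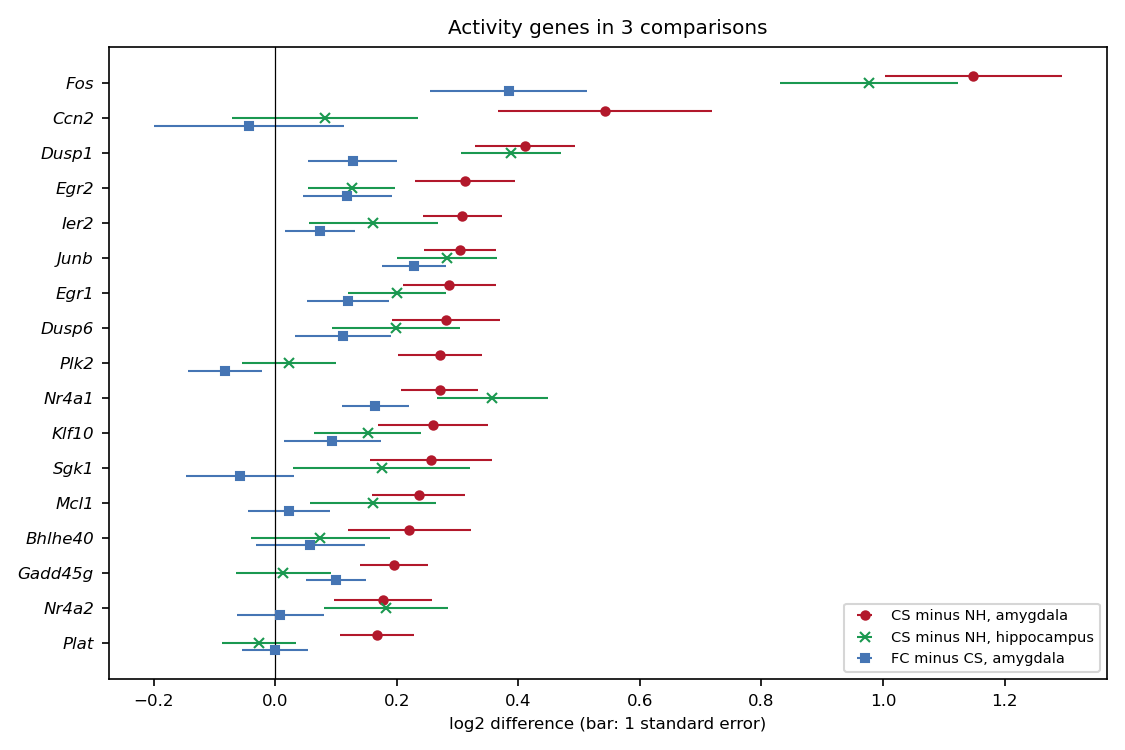
Log2 differences (horizontal axis, with 1 standard error) of the 17 activity genes with an unadjusted p below 0.05 in amygdala, for CS minus NH in amygdala, CS minus NH in hippocampus and FC minus CS in amygdala. Fos stands at 1.15, 0.98 and 0.38 in the 3 comparisons. The first and the last share the CS arrays.

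FC arrays were set against CS arrays to ask whether the arm read as fear conditioning differed from the stimulus alone. No probe set passed the threshold between FC and CS by limma, and 204 of 12422 (1.64%) had an unadjusted p below 0.05. Fos levels in FC arrays were 7.04, 6.65, 6.80 and 7.02 in batch 2 and 6.69 and 6.86 in batch 3, against the CS levels given above. The arms overlapped in batch 2, where the highest CS array reached 7.05, and did not overlap in batch 3. The difference was 0.38, with a 95% interval from 0.12 to 0.65 before adjustment (adjusted p = 1.00). In batch 3 alone it was 0.61 and passed (adjusted p = 0.00726), and in batch 2 alone it was 0.21 and did not.

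Against the same NH arrays, 8 probe sets (0.0644%) passed in FC, which report Fos, Junb, Nr4a1, Dusp1, Ier2, Egr1, Egr2 and Gadd45g. The FC minus NH and CS minus NH differences share the NH arrays and are given side by side as values. They were 0.53 in FC and 0.30 in CS for Junb, 0.54 and 0.41 for Dusp1, 0.44 and 0.27 for Nr4a1, and 0.38 and 0.31 for Ier2. Egr1 had 0.41 in FC and 0.29 in CS, Egr2 0.43 and 0.31, and Gadd45g 0.30 and 0.20. The FC minus CS difference itself did not pass for any of them. Of the 17 activity genes with an unadjusted p below 0.05 in CS, the FC minus CS difference was above 0 in 13 and below 0 in Plk2, Ccn2, Sgk1 and Plat. Over the 62 activity genes it was above 0 in 39. Its median over all probe sets was -0.001, and the share of all genes above 0 was not counted. Plk2 had 0.19 in FC and 0.27 in CS.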

How the data were processed

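The authors deposited 1 linear intensity per probe set and array. Per the submitters' processing notes the tool was RMA (robust multi-array average), with neither version nor settings given. RMA makes intensity distributions alike, so that a shift common to nearly all genes cannot be seen, and the values carry no detection call. Array medians were 52.2 to 56.0 in amygdala and 76.4 to 80.5 in hippocampus, which points to separate normalization of the tissues, and levels were not compared between them. The number of arrays limits the precision.

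Of 12488 probe sets, 66 controls were left out. In the platform annotation 10833 of the rest name 1 gene (8251 symbols), 396 name several and 1193 none, and 10817 had a gene identifier in the RefSeq table of GRCm38.p6. Log2 of the deposited intensity, with nothing added, was fitted with limma 3.58.1 in R 4.3.3 (lmFit, eBayes) on all 22 amygdala arrays, with processing batch as a fixed block, and p-values were adjusted by Benjamini-Hochberg over 12422 probe sets. The contrast between tissues came from a joint fit of 48 arrays, and the gap between batches 2 and 3 from a fit with a mean per arm and batch, added after the data were seen. The code was tested on simulated data.

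Genes named were those past the threshold, the 12 of smallest p in each direction among probe sets above the 40th percentile of mean level, all measured members of the 3 activity lists, and the 4 members of smallest p of each other list. The brightest probe set stood for a gene in the lists, while leading genes outside them were named by the probe set that met the rule, with the others given beside it. The members and lists were chosen with earlier results of these data known. Alternatives changed the dim filter, batch term, arrays, weights, normalization, scale and probe set summary. No pair of arrays held identical values.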

Additional observations from a re-analysis of the deposited data

Results flagged for a closer look

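An array was singled out where its gap to the nearest array of its arm took up more of the arm's range than Dixon's 95% critical value, 0.625 for the 6 CS arrays and 0.466 for the 10 NH arrays. Of 336 tested groups of values (168 named probe sets in each arm), 27 met this, 13 in CS and 14 in NH. Chance alone marks about 1 group in 20. CS replicate 23139 accounts for 9 of them. It was highest for Dusp1 (gap share 0.696), Sgk1 (0.717), Cct5 (0.701) and Cck (0.638), and lowest for Gal (0.790), Calm4 (0.674), Atp5g1 (0.649), Folr1 (0.625) and Cd3e (0.746). Dusp1 stood at 7.46 on that array, against 7.16 to 7.25 on the other 5 CS arrays, all above the NH arrays.

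In other CS arrays, replicate 21523 was highest for Tyro3 (0.691) and Elk3 (0.852) and lowest for Dusp16 (0.750), and replicate 3151152 was highest for Dusp8 (0.703). In NH arrays of batch 1, replicate 16768 was lowest for Plk2 (0.492) and Psmb10 (0.576) and highest for Itga7 (0.484), replicate 17172 was lowest for Araf (0.516) and highest for Hspa4 (0.495) and Prkcb (0.502), replicate 17374 was highest for Sim1 (0.472), Avp (0.488) and Cdh5 (0.470), and replicate 16566 was highest for Slc4a5 (0.468). In NH arrays of batches 2 and 3, replicate 299141 was highest for Creb1 (0.519) and Gadd45b (0.560), replicate 29798 for Cck (0.482) and replicate 3142153 for Aldoc (0.494).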

How the results depend on the processing

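The rise of Fos in CS over NH passed the threshold under all 28 alternatives in which it was tested. One of these, batch 3 alone, has a single NH array, which is assumed to vary like the other arms and gives little support. The alternatives gave differences from 1.02 to 1.22 when 1 array was left out and from 0.63 (probe sets averaged per gene) to 1.31 otherwise. Some alternatives cannot move a batch-blocked difference: leaving out an NH array of batch 1, a dim filter, a spread fitted to intensity, and batches 2 and 3 only. In these only the spread or the adjustment can change. The number of probe sets past the threshold for CS minus NH was 0 with the 60% of lowest mean left out, which removes Fos, 13 with no batch term, 5 with batch as a random block and 5 with array weights. The 5 were Fos, Junb, Ier2, Nr4a1 and Dusp1 in both cases. With no batch term or a random block, the NH arrays of batch 1, which holds no CS array, enter the difference. With 1 array left out it ranged from 1 to 3, reaching 2 without NH replicate 16566 (Fos and Junb) and 3 without NH replicate 16970 (Fos, Junb and Dusp1). For FC minus CS it was 1 (Fos) in batch 3 alone and 0 in the other alternatives run, and for the difference between tissues it was 0 in the 3 run. With no batch term the difference was 0.017 for Mtmr14, 0.011 for Glra1 and 0.18 for Cacna1a, and with batch as a random block it was 0.014 for Cacna1a, against values below 0 with the batch block. In batch 3 alone, which holds 1 NH array, it was 0.032 for Creb1, -0.013 for Tyro3 and -0.13 for Penk, against the other sign over both batches. Of 4730 recomputed differences of the 167 other named probe sets, 4587 kept their direction and their side of the threshold. That count includes the alternatives that cannot move a difference, which keep its direction by construction. Another 18 passed the threshold where the batch-blocked fit of all arrays did not. The sign changed in 125, those 7 included. The remaining 118 belong to 48 probe sets whose 95% interval included 0, so the direction of a difference near 0 is not settled. With 1 array left out the sign changed in 41. The cause of these changes was not tested. The values carry no measure of signal over background, so a dim probe set such as that of Ier2 limits what a small difference shows. No paired analysis was possible because no replicate number occurs in more than 1 arm.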
